A study of Mus musculus with 14 samples.

Results

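Pdgfra, Cspg4, Olig1, Olig2, Sox10, Gpr17, Bcas1, Enpp6 and Myrf mark oligodendrocyte precursors and the cells that differentiate from them. The 9 genes were taken by symbol out of 18735 genes with an assembled transcript in at least 1 library of mouse hippocampus. All 9 had a value in each of the 14 libraries, so none was lost to a filter on low values.

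Oligodendrocyte precursors are dividing glial cells spread through grey and white matter. They carry the PDGF receptor alpha and the proteoglycan NG2 (the product of Cspg4) at their surface, and PDGF keeps them dividing. The transcription factors OLIG1, OLIG2 and SOX10 are present in the lineage from precursor to myelinating cell. A cell that leaves the precursor state passes through a stage with the receptor GPR17 and then makes BCAS1, ENPP6 and MYRF, the last of which is a transcription factor needed to turn on myelin genes. In the hippocampus of a young mouse, precursors, newly formed oligodendrocytes and myelinating cells are present together.

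Total RNA of hippocampus from C57BL6 mice was sequenced in 14 libraries, each labelled as a sample of its own. The labels do not say which libraries came from separate animals, so p-values measure the spread between these libraries. The series text speaks of 3 to 4 mice per group, while 5 libraries are labelled wild type with TAK-418, so libraries of that group may share an animal and p-values that rest on its 5 libraries may be too small. The genotypes were wild type and KMT2D+/bGeo (here called mutant), the latter with 1 trapped copy of the gene for the histone H3 lysine methyltransferase KMT2D. TAK-418, which inhibits the histone demethylase LSD1, was given by gavage at 1 mg/kg/day in methylcellulose for 2 weeks from the age of 2 weeks, control mice received methylcellulose alone, and all mice are labelled as 30 days old. Each group had 3 libraries except wild types given TAK-418, which had 5. Values are abundances of assembled transcripts on the FPKM scale (fragments per kilobase and per 1000000 fragments), summed per gene and scaled between libraries, so levels of different genes can be compared per length. Replicate numbers only tell the libraries of a group apart. The labels name 2 library kits without saying which library had which, so the kit was not tested.

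The libraries were of hippocampal tissue by their markers. All 6 neuronal markers were listed, with a summed abundance of 2049 to 2365, and all 6 markers of mature oligodendrocytes, with 3161 to 5279. The total implied by the step between values, a measure of relative depth, ranged from 35.1 to 60.0 M except for wild-type TAK-418 replicate 1, at 168 M. Of 5 astrocyte markers, Aldoc was listed at 0 in that library and at 307 to 541 in the others, while the other 4 summed to 581 there and to 506 to 588 in the others. The sum of 7 choroid plexus genes was 6474 in wild-type vehicle replicate 3 and 5039 in mutant vehicle replicate 1. It was 908 in mutant vehicle replicate 3, 608 in mutant TAK-418 replicate 1 and 15.9 to 44.3 in the remaining libraries. Kmt2d itself was at 13.8 to 14.2 in wild-type vehicle, 10.6 to 14.4 in mutant vehicle, 12.5 to 17.99 in treated wild types and 9.34 to 14.6 in treated mutants, so its level did not separate the genotypes. In whole tissue, fewer cells of a type and less RNA per cell cannot be told apart.

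Some of the 9 genes are also used by other cells, and the markers of those cells were present. The 6 mural cell markers, whose cells also make NG2, summed to 86.4 to 101 over the libraries, with groups at 92.4 to 99.7 in vehicle wild types, 95.99 to 101 in vehicle mutants, 86.4 to 97.97 in treated wild types and 89.8 to 94.1 in treated mutants. The 5 fibroblast markers, whose cells also carry PDGFRA, summed to 44.1 to 49.8, 48.04 to 50.2, 38.5 to 49.6 and 50.002 to 58.7 in the same order. Schwann cells also use SOX10. A set of 3 Schwann cell markers summed to at most 3.05 in any library. The part of mural cells and fibroblasts in the values of Cspg4 and Pdgfra was not tested.

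In the library values Bcas1 had the highest level of the 9 genes and Cspg4 the lowest. The medians over the 14 libraries were 83.7 for Bcas1, 69.04 for Olig1, 30.03 for Gpr17, 22.99 for Sox10, 18.2 for Olig2, 15.6 for Myrf, 14.03 for Pdgfra, 6.43 for Enpp6 and 4.14 for Cspg4. Bcas1 was above Olig1 and Pdgfra above Enpp6 in 14 of 14 libraries. Gpr17 was above Sox10, and Sox10 above Olig2, in 13 of 14. The order was less fixed for Olig2 over Myrf (12 of 14), Enpp6 over Cspg4 (12 of 14), Myrf over Pdgfra (10 of 14) and Olig1 over Gpr17 (8 of 14). The authors' deposited tables order both ends differently: they list Olig1 (65.2 to 73.1 FPKM) above Bcas1 (53.5 to 62.9) in all 4 groups, and Cspg4 (4.48 to 4.99) above Enpp6 (4.26 to 4.89) in every group but treated wild types.

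**Figure D1:**
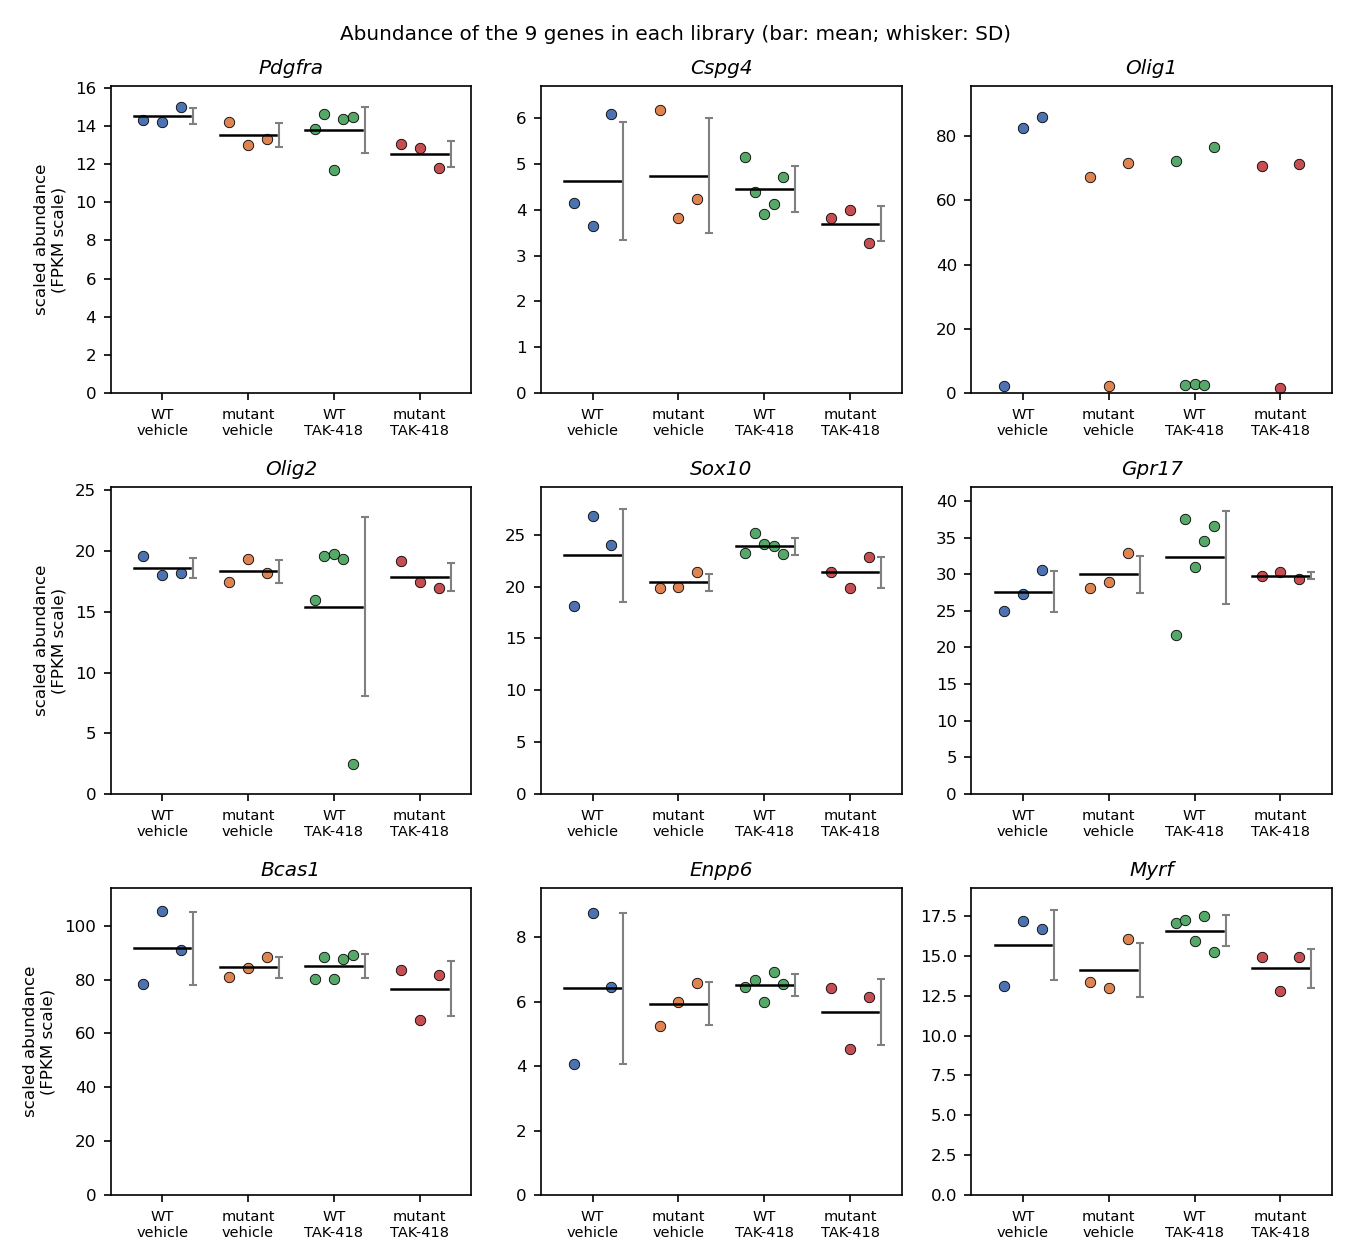
Scaled abundance (FPKM scale, vertical axis from 0, a separate scale per gene) of the 9 genes in each of the 14 libraries, with a point per library, a bar for the group mean and a whisker for the SD (none for Olig1, whose values fall into separate clusters). Olig1 lies between 67.3 and 86.0 in 8 libraries and between 1.69 and 2.91 in 6, Olig2 is at 2.51 in 1 wild-type TAK-418 library, and the groups of most other genes overlap.

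Pdgfra, the receptor through which PDGF acts on precursors, lies on chromosome 5 (GRCm38, chr5:75152292-75198215, plus strand). Its abundance was 14.3, 14.2 and 14.99 in the wild-type vehicle, 14.2, 13.01 and 13.3 in the mutant vehicle, 13.8, 14.6, 11.7, 14.4 and 14.5 in the wild-type TAK-418 and 13.05, 12.8 and 11.8 in the mutant TAK-418 libraries. The group mean was 14.5 ± 0.420 (SD, n = 3) in vehicle wild types and 13.5 ± 0.636 (SD, n = 3) in vehicle mutants, and 13.8 ± 1.21 (SD, n = 5) and 12.5 ± 0.679 (SD, n = 3) in wild types and mutants given TAK-418. All 3 mutant TAK-418 libraries lay below all 3 wild-type vehicle libraries, and wild-type TAK-418 replicate 3 lay below every other library. Of the 9 genes Pdgfra varied least, with a highest value 1.28 times the lowest, against a median of 1.46 over 13273 genes with a value in all libraries. The assembled transcripts of Pdgfra had 23 exons in every form seen, and the 5 forms differed by their first intron alone. The commonest form held 93.5% of the summed abundance.

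Cspg4 encodes the NG2 core protein and lies at chr9:56865033-56899870 on the plus strand. Its abundance was 4.16, 3.66 and 6.10 in the wild-type vehicle, 6.18, 3.82 and 4.24 in the mutant vehicle, 5.16, 4.39, 3.90, 4.12 and 4.72 in the wild-type TAK-418 and 3.84, 3.99 and 3.27 in the mutant TAK-418 libraries. The mean was 4.64 ± 1.29 (SD, n = 3) in vehicle wild types and 4.75 ± 1.26 (SD, n = 3) in vehicle mutants, and 4.46 ± 0.497 (SD, n = 5) and 3.70 ± 0.379 (SD, n = 3) in wild types and mutants given TAK-418. The highest libraries were wild-type vehicle replicate 3 and mutant vehicle replicate 1, the same 2 that were highest for choroid plexus genes. In both of them the gene was assembled as 2 pieces, of 8 and of 3 exons, in place of the 10-exon transcript of the other 12 libraries, and the abundances of the pieces add. With the highest transcript alone these 2 libraries were at 4.31 and 4.66, and the mean was 4.04 ± 0.341 (SD, n = 3) in vehicle wild types and 4.24 ± 0.419 (SD, n = 3) in vehicle mutants, and 4.06 ± 0.142 (SD, n = 5) and 3.70 ± 0.379 (SD, n = 3) in wild types and mutants given TAK-418 in the same order. The next highest sums were in wild-type TAK-418 replicates 1, 5 and 2. Each of these added a second, shorter transcript to the 10-exon one, at 1.24, 0.496 and 0.260.

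Olig1 and Olig2, the basic helix-loop-helix factors of the lineage, are neighbours on the plus strand of chromosome 16, with Olig2 at chr16:91225457-91228677 and Olig1 at chr16:91269772-91271933, 41094 bases apart. OLIG2 is required for precursors to form, and both proteins take part in their differentiation. Olig1 has 1 exon. Its abundance was 2.15, 82.7 and 86.0 in the wild-type vehicle, 67.3, 2.33 and 71.6 in the mutant vehicle, 72.1, 2.36, 2.91, 2.37 and 76.6 in the wild-type TAK-418 and 70.8, 1.69 and 71.4 in the mutant TAK-418 libraries. The values fell into 2 separate clusters, and each group held libraries of both: 1 of 3, 1 of 3, 3 of 5 and 1 of 3 libraries were low. The highest value was 50.9 times the lowest, which placed Olig1 at rank 38 of 13273 genes by that ratio.

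The Olig1 clusters went with where the assembled transcript began. In the 6 low libraries its 5′ end lay 22 to 92 bases upstream of the annotated start, and in the 8 high libraries 21 to 27 bases downstream of it, with no library between. The lengths were 2190 to 2296 bases in the low and 2091 to 2178 bases in the high libraries. Large ratios were frequent among genes without spliced transcripts: of 53 genes with a value in all libraries and no transcript of more than 1 exon, 45.3% had a highest value over 10 times the lowest, against 1.35% of the other genes. Whether the values of those genes fell into clusters or went with the assembled 5′ end was not examined. The authors' deposited tables, which pool the libraries of a group, list Olig1 at 65.2 to 73.1 FPKM in all 4 groups. What sets the low values was not tested, and no group mean of Olig1 is read here.

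**Figure D2:**
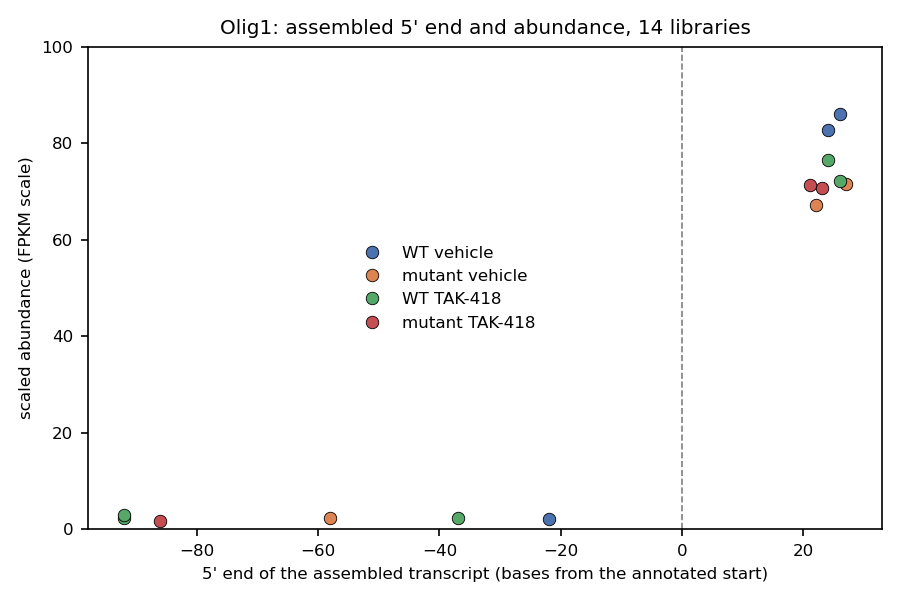
Scaled abundance of Olig1 (vertical axis, FPKM scale) against the distance of the assembled 5′ end from the annotated start in bases (horizontal axis, negative values upstream), with a point for each of the 14 libraries coloured by group. The 6 libraries with an end upstream of the start are at 1.69 to 2.91 and the 8 with an end downstream are at 67.3 to 86.0, and all 4 groups are in both clusters.

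Olig2 was steady but for 1 library. Its abundance was 19.6, 18.05 and 18.2 in the wild-type vehicle, 17.5, 19.4 and 18.2 in the mutant vehicle, 15.96, 19.5, 19.8, 19.4 and 2.51 in the wild-type TAK-418 and 19.2, 17.4 and 16.95 in the mutant TAK-418 libraries. Wild-type TAK-418 replicate 5 lay far below the other 13, which spanned 15.96 to 19.8, and with it the wild-type TAK-418 mean was 15.4 ± 7.39 (SD, n = 5). The authors' deposited tables list Olig2 at 13.6 to 14.2 FPKM in all 4 groups. The 5′ end of the assembled Olig2 transcript was the same base, 91225553, in 12 of 14 libraries. Wild-type TAK-418 replicates 1 and 4 held a form with an extra upstream exon, joined by an intron at chr16:91224393-91225473.

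The promoter window of Olig2 is shown because that shared 5′ end lies in it. It runs from 150 bases before to 10 bases after the RefSeq start (GRCm38.p6, chr16:91225400-91225559, plus strand), and the capitals mark a TATAAA match at chr16:91225542-91225547, upstream of the shared 5′ end. The match begins at position -8 from the RefSeq start and lies downstream of the GENCODE start at 91225457.
Olig2: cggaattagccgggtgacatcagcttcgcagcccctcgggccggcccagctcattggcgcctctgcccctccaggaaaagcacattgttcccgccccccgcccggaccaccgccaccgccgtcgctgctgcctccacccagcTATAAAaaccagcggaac
Both strands were searched. RefSeq windows of the same length were found for 4 of the 9 genes (Pdgfra, Cspg4, Olig2 and Enpp6). TATAAA was present in the Olig2 window alone of these 4, and in 7.88% of 32851 promoter windows. None of the 4 windows held CANNTG, the E-box core that OLIG proteins can bind, which was in 50.1% of all windows, or ACAAAG, a core bound by SOX proteins, which was in 10.5%. A match or its absence describes these letters in this window only.

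Sox10, the third lineage factor, lies at chr15:79154908-79165240 on the minus strand. Its abundance was 18.1, 26.9 and 24.03 in the wild-type vehicle, 19.9, 19.96 and 21.4 in the mutant vehicle, 23.2, 25.1, 24.1, 23.9 and 23.2 in the wild-type TAK-418 and 21.4, 19.8 and 22.8 in the mutant TAK-418 libraries. The mean was 23.0 ± 4.46 (SD, n = 3) in vehicle wild types and 20.4 ± 0.834 (SD, n = 3) in vehicle mutants, and 23.9 ± 0.799 (SD, n = 5) and 21.4 ± 1.49 (SD, n = 3) in wild types and mutants given TAK-418. Under TAK-418 all 3 mutant libraries lay below all 5 wild-type libraries. Under vehicle the wild-type libraries held both the lowest and the highest value of all 14, so the groups overlapped. A 4-exon transcript held 95.7% of the summed abundance of Sox10, and 3 libraries each had a further form with an extra upstream exon.

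Gpr17 encodes a receptor that marks precursors committed to differentiation (chr18:31942997-31949636, minus strand). Its abundance was 25.04, 27.2 and 30.6 in the wild-type vehicle, 28.2, 28.9 and 32.9 in the mutant vehicle, 21.8, 37.5, 30.97, 34.5 and 36.6 in the wild-type TAK-418 and 29.8, 30.3 and 29.4 in the mutant TAK-418 libraries. The mean was 27.6 ± 2.81 (SD, n = 3) in vehicle wild types and 29.98 ± 2.54 (SD, n = 3) in vehicle mutants, and 32.3 ± 6.40 (SD, n = 5) and 29.8 ± 0.444 (SD, n = 3) in wild types and mutants given TAK-418. The wild-type TAK-418 group held the highest value of the 14 libraries, in replicate 2, and the lowest, in replicate 1. Replicate 1 was the library of greatest depth. It also had the longest assembled Gpr17 transcript of the 14 libraries, at 8285 bases, and replicate 2 had the shortest, at 4415. The abundance is per length, and the part of depth and of assembled length in these values was not tested. Every assembled Gpr17 transcript of highest abundance began at the same base in 14 of 14 libraries.

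Bcas1, a marker of newly formed and early myelinating oligodendrocytes, lies at chr2:170346991-170427845 on the minus strand. Its abundance was 78.4, 105.5 and 90.9 in the wild-type vehicle, 80.8, 84.1 and 88.6 in the mutant vehicle, 80.2, 88.3, 80.1, 87.5 and 88.99 in the wild-type TAK-418 and 83.4, 64.9 and 81.8 in the mutant TAK-418 libraries. The mean was 91.6 ± 13.6 (SD, n = 3) in vehicle wild types and 84.5 ± 3.88 (SD, n = 3) in vehicle mutants, and 85.03 ± 4.45 (SD, n = 5) and 76.7 ± 10.3 (SD, n = 3) in wild types and mutants given TAK-418. The highest library was wild-type vehicle replicate 2 and the lowest mutant TAK-418 replicate 2, and all groups overlapped.

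Enpp6 encodes a phosphodiesterase that appears as precursors start to differentiate (chr8:46986887-47096762, plus strand). Its abundance was 4.06, 8.74 and 6.45 in the wild-type vehicle, 5.26, 5.98 and 6.57 in the mutant vehicle, 6.47, 6.68, 5.99, 6.91 and 6.55 in the wild-type TAK-418 and 6.42, 4.52 and 6.14 in the mutant TAK-418 libraries. The mean was 6.42 ± 2.34 (SD, n = 3) in vehicle wild types and 5.94 ± 0.660 (SD, n = 3) in vehicle mutants, and 6.52 ± 0.343 (SD, n = 5) and 5.69 ± 1.02 (SD, n = 3) in wild types and mutants given TAK-418. The wild-type vehicle libraries again held the lowest and the highest of all 14 values, in replicates 1 and 2.

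Myrf, the membrane-bound factor that activates myelin genes, lies at chr19:10208272-10240748 on the minus strand. Its abundance was 13.1, 17.2 and 16.7 in the wild-type vehicle, 13.3, 12.96 and 16.05 in the mutant vehicle, 17.1, 17.2, 15.9, 17.5 and 15.2 in the wild-type TAK-418 and 14.9, 12.8 and 14.9 in the mutant TAK-418 libraries. The mean was 15.7 ± 2.21 (SD, n = 3) in vehicle wild types and 14.1 ± 1.69 (SD, n = 3) in vehicle mutants, and 16.6 ± 0.962 (SD, n = 5) and 14.2 ± 1.23 (SD, n = 3) in wild types and mutants given TAK-418. Under TAK-418 the mutant libraries lay below the wild-type libraries without overlap, and under vehicle the groups overlapped.

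Group differences were tested with limma on log2(abundance + 0.878) over 16580 genes, with p-values adjusted by the Benjamini-Hochberg method over all of them and a threshold of 0.05. In the comparison of mutants with wild types under vehicle, which asks what the Kmt2d allele does without the drug, none of the 9 genes was called (0 of 9, against 0% of all tested genes). The 9 log2 differences had a median of -0.10, against 0.00 for all genes, and 7 of them were below 0, against 48.9% of all genes. Here and below, medians and counts of the 9 include Olig1 and Olig2, whose differences rest on their few low libraries. The smallest p belonged to Sox10, at -0.15 ± 0.11 (SE) on the log2 scale, with a limma adjusted p of 0.998. Its size rested on single libraries: it was -0.31 without wild-type vehicle replicate 1, with an adjusted p of 0.387, and -0.03 without wild-type vehicle replicate 2. No gene had an unadjusted limma p under 0.05 (0 of 9, against 5.48% of all genes). Leaving out Olig1 and Olig2, the 95% intervals of the other 7 genes reached from -0.48 to 0.47 at their widest.

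Under TAK-418 the mutants were again compared with wild types. None of the 9 genes was called (0 of 9, against 0.0121% of all genes). The median difference was -0.16, against 0.00 for all genes, with 7 of 9 below 0, against 48.9% of all genes. The genes above 0 were Olig1 (1.01) and Olig2 (0.45). Myrf differed by -0.21 ± 0.10 (SE), with an unadjusted limma p of 0.04999 and an adjusted p of 0.925. This was the 1 gene of 9 with an unadjusted p under 0.05, against 4.95% of all genes, and 2.55% of all genes were lower at that level. Myrf and Sox10 (-0.16 ± 0.10, SE) were the 2 genes whose groups did not overlap, against 2.41% of all genes lower without overlap. The sign for Myrf depended on summing its forms: with the highest transcript alone the difference was 0.12. The highest transcript was not the same form in every library. It was a different form in each of wild-type TAK-418 replicates 1, 2 and 4, where it held 48.0%, 57.3% and 55.001% of the Myrf abundance.

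The effect of TAK-418 was tested within each genotype. In wild types none of the 9 genes was called (0 of 9, against 0% of all genes). Of the 9 differences 5 were below 0, against 51.0% of all genes, and their median was -0.03. Gpr17 had the smallest p, with a difference of 0.20 ± 0.15 (SE) and a limma adjusted p of 0.737. Without wild-type TAK-418 replicate 1 it was 0.33, with an adjusted p of 0.306, the smallest adjusted p that any of the 9 genes reached in the fits tried. With abundance multiplied by transcript length it was 0.17 ± 0.08 (SE), with a limma adjusted p of 0.567. In mutants none was called either (0 of 9, against 0.00603% of all genes). Of the 9 differences 7 were below 0, against 48.8% of all genes, and their median was -0.06. Cspg4 had the smallest p there, at -0.28 ± 0.18 (SE) with an adjusted p of 1.00. It was -0.10 without mutant vehicle replicate 1, 1 of the 2 libraries highest in choroid plexus genes, and -0.15 with the highest transcript alone. In neither genotype did any of the 9 genes have an unadjusted p under 0.05, against 8.42% of all genes in wild types and 4.40% in mutants.

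Treated mutants were compared with vehicle wild types, the groups that differ in both allele and drug. None of the 9 genes was called (0 of 9, against 0.0241% of all genes). Of the 9 differences 8 were below 0, against 49.6% of all genes, with a median of -0.13 against 0.00 for all genes. Pdgfra was lower by -0.20 ± 0.08 (SE) on the log2 scale, with an unadjusted limma p of 0.0254 and an adjusted p of 0.865, and its groups did not overlap (1 of 9 genes, against 3.99% of all genes lower without overlap). Bcas1 was at -0.25 ± 0.11 (SE), with an unadjusted p of 0.0396 and an adjusted p of 0.911. These were the 2 of 9 genes with an unadjusted p under 0.05, against 5.37% of all genes, and 2.22% of all genes were lower at that level. The Bcas1 difference was -0.14 without mutant TAK-418 replicate 2, -0.15 without wild-type vehicle replicate 2 and -0.05 with the highest transcript alone. This comparison shares its groups with the others, so its values are not separate evidence.

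Averaged over both treatments, the genotype difference called none of the 9 genes (0 of 9, against 0.00603% of all genes). The median was -0.11, with 6 of 9 below 0, against 48.7% of all genes. Myrf, at -0.18 ± 0.07 (SE), had an unadjusted limma p of 0.0324 and an adjusted p of 0.847, and was 1 of 9 genes with an unadjusted p under 0.05, against 5.85% of all genes (3.00% lower). With the highest transcript alone it was 0.0422. Averaged over both genotypes, the drug difference called none (0 of 9, against 0.0121% of all genes), and Bcas1 had the smallest p, with -0.12 ± 0.07 (SE) and an adjusted p of 0.689. It was -0.06 without mutant TAK-418 replicate 2, -0.07 without wild-type vehicle replicate 2 and 0.0447 with the highest transcript alone. There 0 of 9 genes had an unadjusted p under 0.05, against 8.29% of all genes. The interaction, which asks whether the drug effect differs between genotypes, called none (0 of 9, against 0.00603% of all genes), and Cspg4 had the smallest p, with -0.25 ± 0.24 (SE) and an adjusted p of 0.976. It was -0.08 without mutant vehicle replicate 1, -0.12 without wild-type vehicle replicate 2 and -0.43 without wild-type vehicle replicate 3. Again 0 of 9 had an unadjusted p under 0.05, against 4.43% of all genes. A p that misses the threshold does not show that the groups were alike. In the interaction the intervals of the 7 genes other than Olig1 and Olig2 reached from -0.77 to 0.44.

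**Figure D3:**
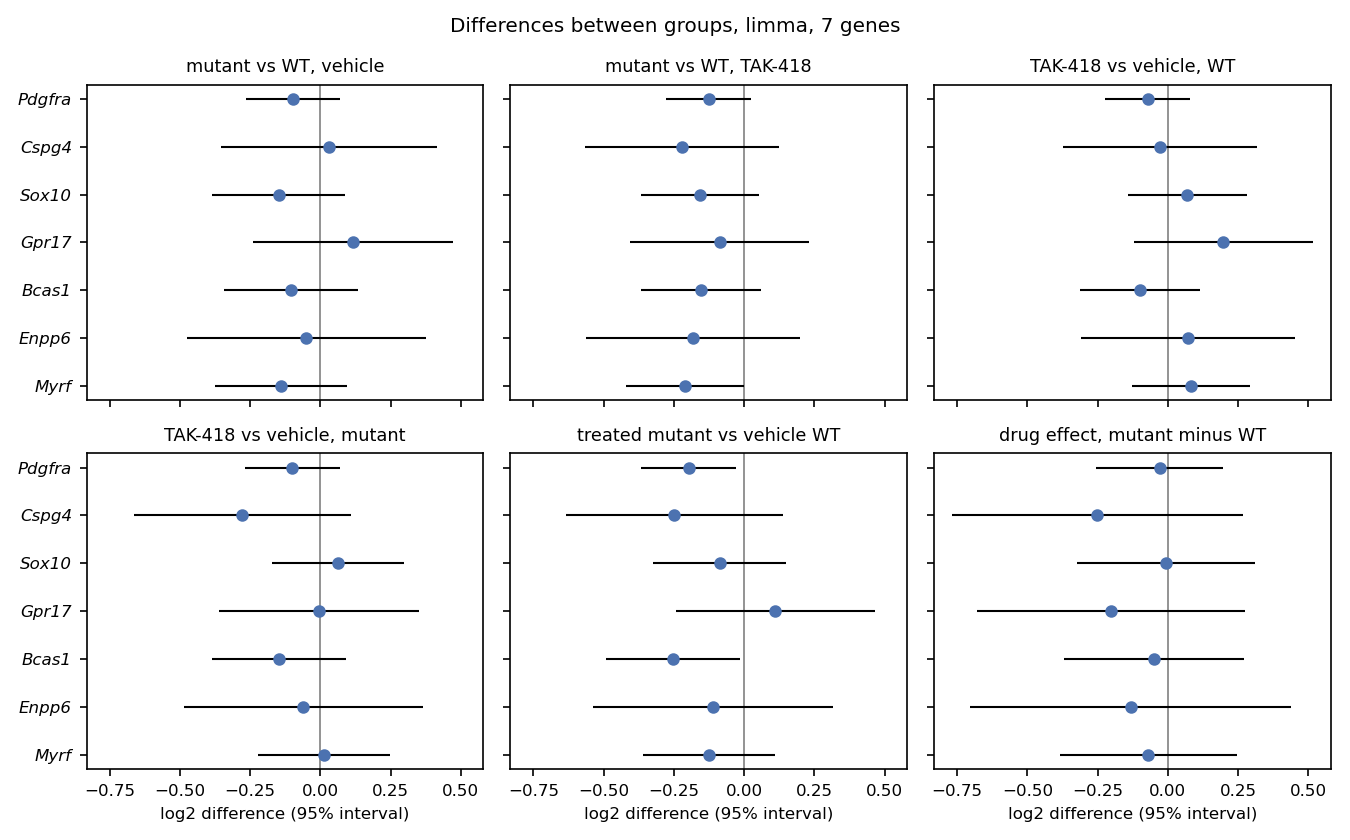
Log2 differences (horizontal axis, point) with 95% intervals (line) from limma for 7 of the 9 genes in 6 comparisons, with the grey line at 0. Olig1 and Olig2 are left out because low libraries set their spread (6 of 14 libraries for Olig1, wild-type TAK-418 replicate 5 for Olig2). Nearly all intervals cross 0, and those of Pdgfra and Bcas1 for treated mutants against vehicle wild types and of Myrf under TAK-418 lie just below it.

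The reads implied per gene and library had a median of 8664 for Bcas1, 7837 for Gpr17, 4286 for Pdgfra, 3983 for Myrf, 2800 for Sox10, 1524 for Cspg4 and 1418 for Enpp6. They were computed with the step between values of single-exon transcripts. In simulated data for the genotype comparison under vehicle, changes of 1 on the log2 scale were recovered for 71% of the altered genes and changes of 2 for 86%, far larger changes than the differences seen here. The altered genes were drawn at random from all tested genes, so these shares do not give the recovery for the genes named here.

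Sox10, Bcas1, Enpp6 and Myrf varied together from library to library. Over the 14 libraries, Pearson's r of log2 values was 0.88 for Sox10 with Myrf, 0.86 for Sox10 with Enpp6, 0.83 for Bcas1 with Enpp6, 0.79 for Enpp6 with Myrf, 0.67 for Sox10 with Bcas1 and 0.65 for Bcas1 with Myrf. With the group means taken out, the 6 values were 0.74 to 0.93. For all 4 genes wild-type vehicle replicate 1 was low and replicate 2 high. Without replicate 1 the 6 values were 0.63 to 0.93. Pdgfra and Cspg4 had r of 0.63 with each other. With the same 4 genes Cspg4 had r of -0.11 to 0.08, its 2 highest libraries being those with 2 added pieces. Pdgfra had r of 0.43 with Bcas1, 0.28 with Myrf, 0.16 with Enpp6 and 0.14 with Sox10. Gpr17 had r of 0.20 to 0.30 with those 4. The libraries share depth and tissue content with all genes, and these correlations are descriptions without a test.

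**Figure D4:**
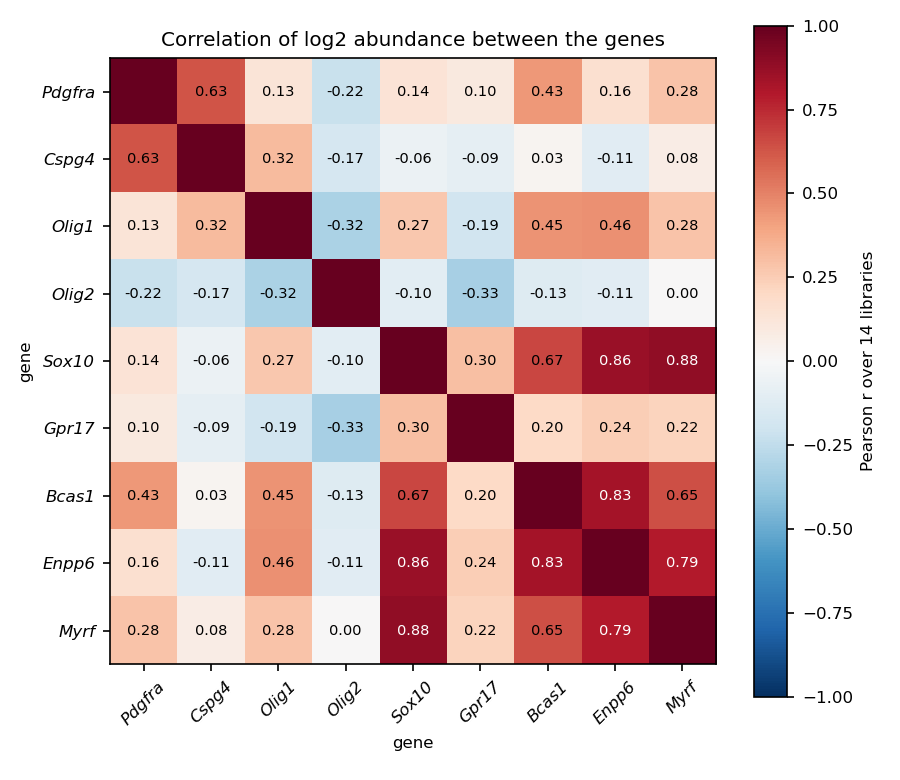
Pearson's r of log2 abundance over the 14 libraries for each pair of the 9 genes (both axes list the genes, colour scale from -1 in blue to 1 in red). The block of Sox10, Bcas1, Enpp6 and Myrf holds values of 0.65 to 0.88, and Pdgfra with Cspg4 is at 0.63.

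The genes whose pattern over the 14 libraries was most like each of the 9 were sought among 13272 others with a value in all libraries. For Enpp6 the nearest were Tspan2 (r = 0.92), Mal (0.92) and Fa2h (0.90). Fa2h (0.93) was also the nearest to Sox10, before Rgma (0.92) and Tspan15 (0.91), and Bcas1 was closest to Sema4d (0.88), Tspan2 (0.88) and Mal (0.87). Tspan2, Mal and Fa2h are genes of myelinating oligodendrocytes. Other oligodendrocyte genes outside the 9 ranged widely. Their r was -0.17 to 0.73 with Sox10, -0.10 to 0.71 with Enpp6 and 0.22 to 0.73 with Bcas1. The nearest genes are the highest of 13272, so their r is high by selection. For Myrf the nearest were Scd2 (0.92), Smurf1 (0.91) and Zdhhc9 (0.90). The precursor markers had other neighbours: Cpne3 (0.86), Med1 (0.85) and Exd2 (0.84) for Pdgfra, and Col9a3 (0.89), Tcn2 (0.88) and Bgn (0.88) for Cspg4. The highest Cspg4 libraries, wild-type vehicle replicate 3 and mutant vehicle replicate 1, were assembled as pieces and were highest in choroid plexus genes. The next highest, wild-type TAK-418 replicates 1, 5 and 2, also added a second transcript. The part of all these libraries in the r values of Cspg4, also that with Pdgfra, was not tested. Gpr17 was closest to Shank1 (0.89), Adcy1 (0.87) and Fbrs (0.86). For Olig1 (Stk16 at 0.80, Asb7 at 0.79 and Rhbdl2 at 0.78) and Olig2 (Zfp629, Cyp4v3 and Naa35, each at 0.98 to 0.99) the r followed their few low libraries.

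Bcas1 was assembled as 4 transcripts in each library. Forms of 10, 8 and 7 exons were found in 14 libraries and a 9-exon form in 13, with another 8-exon form in its place in wild-type TAK-418 replicate 1. The 4 common forms differed by 3 exons between positions 170356248 and 170370491 of chromosome 2. The 10-exon form holds all 3, the 9-exon form lacks the 165-base exon, the 8-exon form lacks the 165-base and the 42-base exons, and the 7-exon form lacks all 3. Each of the 3 is annotated as coding and has a length that is a multiple of 3, so that its loss keeps the reading frame. Their sequences, from GENCODE's transcripts on GRCm38 and given 5′ to 3′ on the minus strand, are shown because they are what separates the forms, at chr2:170370450-170370491, chr2:170366364-170366528 and chr2:170356248-170356313 in the order of transcription.
Bcas1 42-base exon: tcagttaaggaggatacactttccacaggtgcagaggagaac
Bcas1 165-base exon: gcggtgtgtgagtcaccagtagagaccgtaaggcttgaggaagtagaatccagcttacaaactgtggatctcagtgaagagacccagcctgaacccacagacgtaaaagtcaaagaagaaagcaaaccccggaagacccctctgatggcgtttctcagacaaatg
Bcas1 66-base exon: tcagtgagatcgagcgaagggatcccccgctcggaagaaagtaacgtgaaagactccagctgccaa

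The share of Bcas1 abundance in forms with the 42-base exon was lower in wild-type vehicle libraries than in every other library. It was 45.8%, 43.4% and 42.8% in the wild-type vehicle, 54.2%, 63.6% and 48.2% in the mutant vehicle, 57.1%, 52.4%, 51.6%, 52.9% and 53.1% in the wild-type TAK-418 and 49.5%, 66.2% and 53.6% in the mutant TAK-418 libraries. The mean was 44.0% ± 1.57 (SD, n = 3) in vehicle wild types and 55.3% ± 7.78 (SD, n = 3) in vehicle mutants, and 53.4% ± 2.14 (SD, n = 5) and 56.5% ± 8.71 (SD, n = 3) in wild types and mutants given TAK-418. For the 165-base exon the means, in the same order, were 39.3% ± 1.16, 43.9% ± 5.45, 47.5% ± 2.24 and 45.1% ± 1.19, and for the 66-base exon 67.6% ± 2.48, 71.3% ± 5.77, 72.3% ± 1.33 and 73.9% ± 6.98, with the same n. All 3 shares were thus lowest on average in vehicle wild types.

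These shares were looked at after the values had been seen. Two-sided exact permutation tests of the 3 exons in 5 comparisons gave 15 p-values. For TAK-418 in wild types each of the 3 exons had an exact permutation p of 0.0357, the smallest that 3 against 5 libraries allow, which was 0.179 after adjustment over the 15. The differences were 9.41 percentage points for the 42-base, 8.24 for the 165-base and 4.72 for the 66-base exon, with no overlap between groups. The form with all 3 exons counts in each share, so the 3 p-values are not separate results. Mutants exceeded wild types under vehicle by 11.3 percentage points for the 42-base exon, with an exact p of 0.1, the smallest that 3 against 3 allow, and 0.25 after adjustment. None of the 15 adjusted values was under 0.05. How reads shared by the forms were divided between them is not given in the sources used here.

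**Figure D5:**
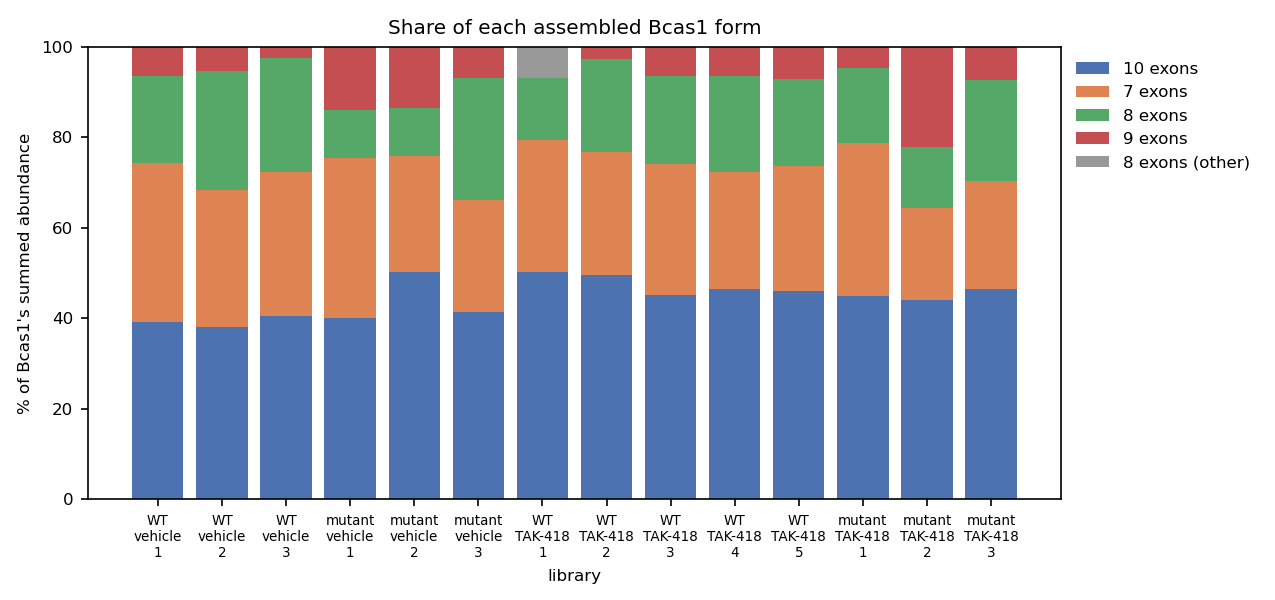
Share of the summed Bcas1 abundance (vertical axis, percent) in each assembled form, named by its number of exons, with a stacked bar for each of the 14 libraries. The 10-exon share, at the bottom, is 38.2% to 40.5% in vehicle wild types and 45.2% to 50.2% in treated wild types.

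Myrf had the most forms, with 9 over the 14 libraries. The commonest, of 27 exons, held 71.7% of the summed abundance. Another 27-exon form differed by the start of 1 exon, whose acceptor could lie at either of 2 places 3 bases apart, and forms with the shorter exon were seen in 3 of 14 libraries (mutant vehicle replicate 3 and wild-type TAK-418 replicates 1 and 4). The join is shown with 15 bases on each side and the optional bases in capitals (chromosome 19, minus strand, with the exon starting at 10215105 or at 10215102).
Myrf: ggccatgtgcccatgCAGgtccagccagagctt
A 264-base coding exon (chr19:10228653-10228916) was the other frequent difference. Forms with it held 77.6% to 91.0% of Myrf abundance in wild-type vehicle, 84.2% to 100% in mutant vehicle, 42.7% to 100% in wild-type TAK-418 and 67.9% to 100% in mutant TAK-418 libraries, so the groups overlapped.

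The other genes of the pathway gave no calls either. Among 17 further precursor genes, including Ptprz1 (mean level 57.6) and Epn2 (54.9), 0 were called in either direction in any of the 8 comparisons. The same held for 17 further genes of differentiating oligodendrocytes, led by Sirt2 (134) and Fyn (82.4), for 23 tested of 24 ligands, receptors and inhibitors of the lineage, led by the inhibitor Id2 (83.6) and the receptor Fgfr1 (68.3), and for 16 chromatin and transcription regulators, led by Hdac2 (65.4) and Hdac3 (53.9). Of all tested genes 0% to 0.0241% were called in these comparisons, so most lists of these sizes would hold none. Pdgfa, the main ligand of PDGFRA on precursors, was at 12.8 to 16.4 over the libraries. Under TAK-418 the mutants' median log2 difference from wild types was -0.11 for the 17 precursor genes (13 of 17 below 0) and -0.06 for the 17 differentiating genes (12 of 17 below 0), against 0.00 for all genes. Under vehicle these medians were 0.04 and -0.01.

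Myelin genes, which the differentiated cell makes, were mostly below 0 in every comparison but the interaction, where 7 of 20 were. All 20 genes of the myelin list, led by Mbp (mean level 2057), were below 0 for treated mutants against vehicle wild types, against 49.6% of all genes. Their median was -0.20, and 6 of 20 were lower at an unadjusted limma p under 0.05, against 2.22% of all genes. The 20 genes were measured in the same libraries, so they are not separate results. None of the 20 was called, against 0.0241% of all genes, and the smallest limma adjusted p was 0.765. Averaged over treatments, the genotype difference was also below 0 for 20 of 20, against 48.7% of all genes, with a median of -0.11. For TAK-418 in mutants 14 of 20 were below 0, with a median of -0.03. The myelin sum was highest in wild-type vehicle replicate 2 (6729, next 5776), the library that was also highest for Sox10, Bcas1 and Enpp6, and its part in these medians was not tested. Wild-type vehicle replicate 1 was at 4422. By this sum vehicle wild types (4422 to 6729) and treated mutants (4311 to 5316) thus overlapped.

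The authors' deposited tables give 1 FPKM value per group and compare mutants with wild types in 4 pairings. They hold 11 loci with the symbols of the 9 genes among 81411, the extra ones being second loci of Sox10 and Olig2 at 0.204 to 0.411 FPKM. Over the 8 values listed for each gene, the highest was 1.05 to 1.19 times the lowest. In the authors' deposited tables none of the 9 genes was called by q-value in any pairing (0 of 9 each, against 0.218% of tested loci for treated mutants over treated wild types, 0.611% for vehicle mutants over treated wild types, 0.324% for treated mutants over vehicle wild types and 0.224% for vehicle mutants over vehicle wild types).

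The smallest p-values in the authors' deposited tables fell on differentiating genes. Gpr17 was listed at 24.3 FPKM in treated wild types and 20.7 in treated mutants, a log2 fold change of -0.23 with p = 0.0403 and q = 0.808 in the authors' deposited table. For the same pairing the authors' deposited table lists Myrf at 12.2 and 10.7 FPKM, with -0.20, p = 0.0167 and q = 0.808. Gpr17 (p = 0.0448) and Myrf (p = 0.043) were also under 0.05 for vehicle mutants over treated wild types in the authors' deposited table, and Bcas1, at 62.9 in vehicle wild types and 53.6 in treated mutants, had p = 0.0423 and q = 1.00. These are 2, 2 and 1 of 9 genes, against 4.10%, 6.48% and 4.49% of tested loci, and for vehicle mutants over vehicle wild types 0 of 9, against 4.32%. The pairings with treated wild types had a median log2 fold change of 0.13 and 0.16 over all tested loci, against -0.01 in the others. The medians of the 9 genes in those 2 pairings were -0.14 and -0.10.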

How the data were processed

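Hippocampal RNA-seq of 14 libraries in 4 groups was used. FastQC, TopHat2 2.1.0 and the mm10 build are named in the submitters' processing notes, and per the file headers the transcripts come from the assembler CLASS 2.1.7. The deposited transcript abundance is a score on an FPKM-like scale. That scale was inferred from the low values of single-exon transcripts, 1246 to 6487 per library. Of these, 94.8% to 98.8% were whole multiples (tolerance 0.1) of 1 step per library after multiplying by length. Transcripts of more than 1 exon were not checked in this way. The authors' deposited tables hold FPKM per group, log2 fold changes, p-values and q-values.

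Transcripts with an intron of a GENCODE M21 gene (55450 genes) were assigned to it. Single-exon transcripts, nearly all without a strand, were assigned by an exon overlap of at least 50% on either strand, although the plan had named the same strand. Abundances were summed per gene and scaled by the median of ratios, and log2(value + 0.878) was used, the pseudocount being the 10th percentile of values above 0. The filter required values in 3 or more libraries, which left 16580 of 18735 genes for limma 3.58.1 (R 4.3.3), all groups in 1 fit, with Benjamini-Hochberg adjustment. Exact permutation tests used scipy 1.17.1. Other steps used Python 3.11.15, numpy 2.4.6, pandas 2.3.3 and matplotlib 3.10.9. On simulated data of 16580 genes for the vehicle genotype comparison, 4 genes were called falsely.

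The members and lists were chosen with earlier results of these data known. The named genes were all 9 members, those with an unadjusted p under 0.05 or the smallest p in a comparison, the 3 most like each member and the 2 highest of each list, apart from a gene that is not reported here. Alternatives changed the pseudocount, filter, scaling, gene value, assignment, fit, weights and libraries. Promoter sequences came from RefSeq (GRCm38.p6).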

Additional observations from a re-analysis of the deposited data

Results flagged for a closer look

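In the group of 5 wild-type TAK-418 libraries, 2 of the 9 genes had a lowest library whose gap to the next, as a share of the group's range, exceeded the critical value of 0.71. Pdgfra was at 11.7 in replicate 3, with a gap of 0.729 of the range. Olig2 was at 2.51 in replicate 5, with a gap of 0.780 of the range. Chance gives about 1 such case in 20 groups, and the groups of 3 were not examined in this way.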

How the results depend on the processing

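None of the 9 genes was called in any of 221 fits over 28 settings and 8 comparisons, and the smallest limma adjusted p among them was 0.306. Of the 9 named gene differences that were recomputed, 3 changed sign with the highest transcript alone: Myrf between genotypes under TAK-418 (0.12), Myrf between genotypes over both treatments (0.0422) and Bcas1 between treatments (0.0447), and the cause was not tested. The number of all genes called was small and moved with the settings. Leaving out 1 library gave 0 to 6 (0 with all libraries) for the genotypes under vehicle, 1 to 7 (2) under TAK-418, 0 to 2 (0) for the drug in wild types, 1 to 8 (1) in mutants, 1 to 6 (4) for mutants given drug against wild types given vehicle, 0 to 4 (1) for genotype, 1 to 7 (2) for drug and 0 to 8 (1) for the interaction. The other settings gave 0 to 6, 0 to 7, 0 to 7, 0 to 17, 0 to 11, 0 to 4, 0 to 12 and 0 to 5 in the same order. Pdgfra, lower in mutants given drug than in vehicle wild types, ranged over these settings from -0.43 to -0.13. No paired analysis was possible because the labels give no replicate numbers, and the numbers used here follow accession order. Groups of 3 libraries and assembled, not counted, values limit the precision.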
